A study of Mus musculus with 32 samples.

Results

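The genes described here encode the receptors for norepinephrine, dopamine, serotonin, histamine and acetylcholine in the mouse brain, read allele by allele in hybrids of 2 inbred strains. They were chosen by name: autosomal genes whose symbols begin Htr, Drd, Adra, Adrb, Chrm, Chrn or Hrh in the form used for receptors, with at least 20 informative reads in at least 1 brain region. 34 of the 16136 autosomal genes with that minimum qualified: 9 nicotinic acetylcholine receptor subunits, 9 serotonin receptors, 5 alpha and 2 beta adrenergic receptors, 4 muscarinic acetylcholine receptors, 3 histamine receptors, 1 dopamine receptor (Drd5) and Drd1ip. The name rule also takes in Drd1ip, an older symbol of Caly (calcyon), which codes for a vesicle protein first found as a partner of the D1-type dopamine receptors and is no receptor itself. Of the 34, 28 reached the minimum in POA, 26 in PFC and 27 in the embryo, and 18 reached it in all 3. A further 6 matching symbols stayed below it, with 18 reads for Drd3, 11 each for Chrm5 and Chrna6, 10 for Drd1a, 7 for Chrnb1 and 6 for Drd4. Just inside the minimum, counting each gene in its deepest region, were Adrb3 with 35 reads and Chrnb4 with 38. The X-linked Htr2c falls outside the rule.

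The RNA came from brains of F1 hybrids of the strains CAST/EiJ (CAST), which descends from the wild castaneus house mouse, and C57BL/6J (B6), the common laboratory mouse. F1r animals had a B6 mother and a CAST father, and F1i animals had a CAST mother and a B6 father. Adults of 5 weeks gave the preoptic area (POA), a region of the anterior hypothalamus that serves reproductive and parental behaviour and thermoregulation, and the medial prefrontal cortex (PFC), with a male and a female pool of 8 to 10 animals for each cross and region. Whole brain at embryonic day 15 (E15) came as 1 pool of 4 to 5 individuals per cross, and 2 libraries of each parental strain at E15 were used for 1 description. A pool, with its technical replicates already summed in the deposited values, is the replicate throughout, so spreads are those between pools and not between animals. Embryonic sex is not given in the labels.

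Monoamines and acetylcholine reach wide areas of the brain through diffuse projections, and what a cell does with them depends on the receptors it makes. Most of these receptors act through G proteins: those coupled to Gq raise calcium, those coupled to Gs raise cyclic AMP, and those coupled to Gi lower it. The nicotinic receptors and the Htr3a serotonin receptor are instead ion channels assembled from several subunits, and the choice of subunits sets where and how fast they act.

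An informative read covers a base that differs between the strains (a SNP) and so tells which allele it came from. The level of a gene is given as its informative reads per 1000000 nuclear informative reads of the pool (RPM), a measure that grows with the number of SNPs in a gene and is therefore compared between regions and not between genes. Pools held 3524600 to 7556169 nuclear informative reads in POA, 4718723 to 7021127 in PFC, and 11380626 and 11039824 in the E15 F1r and F1i pools. The tables list a SNP only where every pool of the region had at least 1 read, so a gene missing from a table is not a measured 0. The sequencing did not keep the strand, so reads of a gene on the other strand cannot be told apart. Such genes overlap Adra1d (Gm14285), Chrm1 (7SK), Chrm2 (9330158H04Rik), Chrm4 (Mdk), Hrh2 (Gm16578) and Htr5b (Gm8217), besides Drd5 and Hrh3, given below. Their part in the levels and allele shares was not tested. Striatal genes were high in POA beside the preoptic ones. Of 7 striatal genes 6 were listed in every region, and they summed to 960 to 1234 RPM in POA, against 269 to 340 RPM in PFC. Adora2a, which marks striatal output neurons, stood at 78.5 to 113 RPM in POA and at 0.176 to 0.285 RPM in PFC. The cortical excitatory genes Slc17a7 and Tbr1 summed to 6.79 to 11.2 RPM in POA, where Neurod6 and Cux2 were not listed, and with Neurod6 to 2658 to 3941 RPM in PFC, where Cux2 was not. Preoptic and hypothalamic genes summed to 378 to 584 RPM in POA (7 of 8, Nkx2-1 not) and to 7.21 to 9.83 RPM in PFC (2 of 8, with Gal, Avp, Oxt, Trh, Nkx2-1 and Hmx2 not listed). Oligodendrocyte genes (3 of 4 listed in both adult regions, Mog not) summed to 5925 to 6606 RPM in POA and varied between 1077 and 3970 RPM among the PFC pools, with the highest value in the F1r female pool. The part of these cell types in the receptor differences below was not tested, and in bulk tissue fewer cells of a type cannot be told apart from less RNA per cell.

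**Figure D1:**
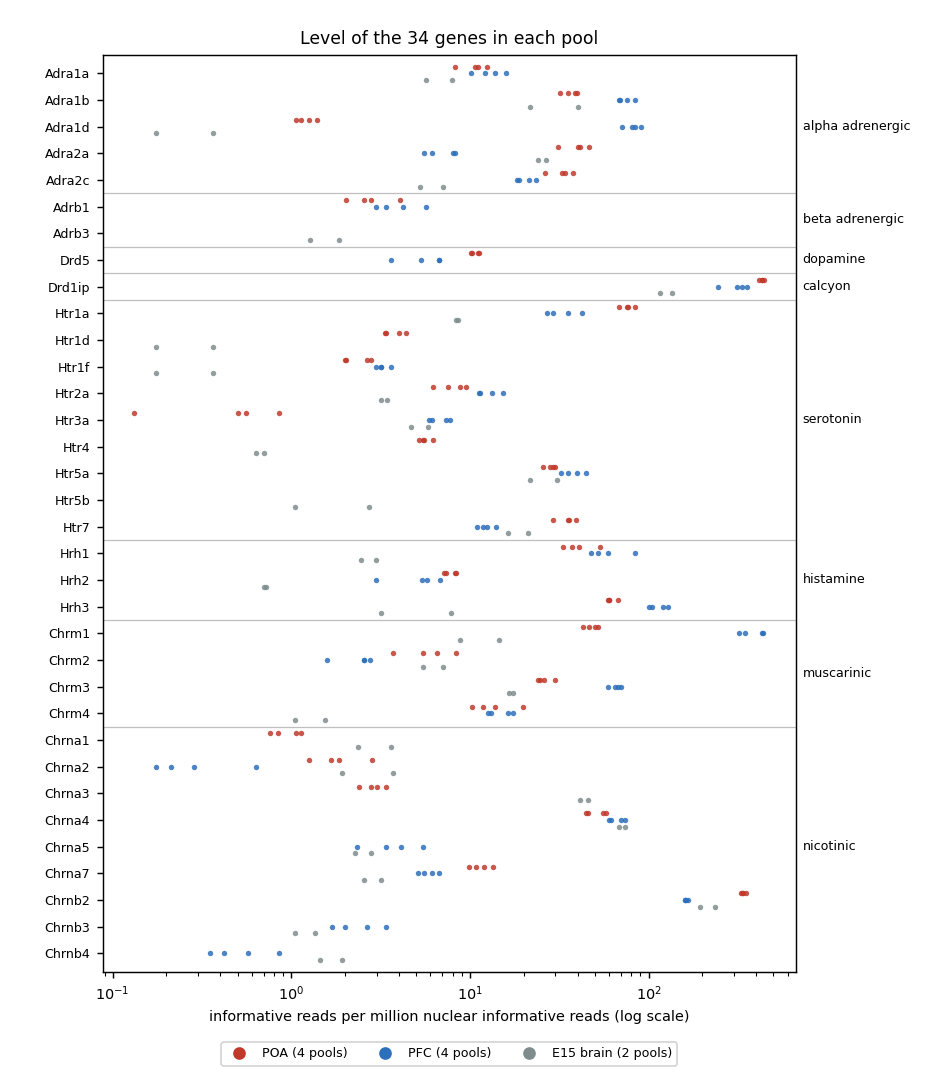
Informative reads scaled to the nuclear informative reads of the pool (RPM, log axis) of the 34 genes in each pool, with POA in red, PFC in blue and E15 brain in grey, grouped by receptor class. Adra1d, Htr3a and Chrm1 show the widest gaps between POA and PFC, and genes with no point in a region were not listed there.

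RPM per SNP, a measure that does not grow with the number of SNPs, divides RPM by the gene's SNPs listed in any region. A SNP not listed in a region thus adds no reads there but still counts in the divisor. By this measure the order of the genes differed between the regions. Drd1ip averaged 26.9 RPM per SNP in POA, Hrh3 10.3 and Chrnb2 8.20 (n = 4 pools). In PFC Chrm1 averaged 21.3 RPM per SNP, Drd1ip 19.4 and Hrh3 19.0. Only 13 of the 16 Drd1ip SNPs were listed in PFC, against all 18 of Chrm1, so the order of Chrm1 and Drd1ip there depends on the divisor. In E15 brain Drd1ip averaged 7.84 RPM per SNP, Chrnb2 5.22 and Chrna4 4.18 (n = 2). Among the receptors proper, then, the Gq-coupled muscarinic receptor Chrm1 had the highest mean in PFC, the histamine receptor Hrh3 in POA and the nicotinic subunit Chrnb2 in the embryo. In PFC the pools of Chrm1 (17.8 to 24.1 RPM per SNP) and Hrh3 (16.8 to 21.5) overlapped. Hrh3 was the higher in the F1i female pool, at 21.5 against 19.3.

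The first comparison asks how the adult regions differ. Of the 34 genes 24 were listed in both tables with enough reads to test, and 21 of them passed at an adjusted p under 0.05 in edgeR's quasi-likelihood test over 12480 genes: 8 were higher in POA and 13 lower. Over all genes the share past the threshold was 61.5%, with 30.4% higher in POA and 31.1% lower. The median log2 POA over PFC was -0.57 over the 24 genes and -0.00 over all genes tested. In 20 of the 24 genes the 4 POA pools did not overlap the 4 PFC pools. How many of all genes did so was not counted, so this does not set the receptor genes apart. Values of the adult pools are given below in the order F1r male, F1r female, F1i male and F1i female, and those of the embryo in the order F1r and F1i.

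Of the 5 alpha adrenergic receptors 2 were higher in POA and 3 lower. Adra1d, a Gq-coupled norepinephrine receptor, had 1.26, 1.06, 1.13 and 1.40 RPM in POA, against 80.9, 91.2, 70.6 and 83.5 RPM in PFC. This was the widest gap of the 24 genes, at log2 -6.31 ± 0.18 (SE, edgeR adjusted p = 1.43e-10). Only 3 of its 10 PFC SNPs were listed in POA, over 27 POA reads, and on those 3 alone the log2 value was -4.12 ± 0.23. Adra1b, also coupled to Gq, had 32.0, 40.0, 38.9 and 35.3 RPM in POA, against 68.2, 69.4, 84.3 and 75.2 RPM in PFC (log2 -1.23 ± 0.12). Adra1a, the other Gq-coupled type, ran from 8.21 to 12.5 RPM in POA and from 10.2 to 15.8 RPM in PFC. Its pools overlapped, and its log2 value of -0.53 ± 0.18 lost the threshold without the PFC F1i female, PFC F1r male, POA F1i female, POA F1i male or POA F1r female pool (-0.38, -0.46, -0.53, -0.52 and -0.46).

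The Gi-coupled alpha-2 receptors, which also act as brakes on norepinephrine release, went the other way. Adra2a had 31.2, 40.1, 41.1 and 46.5 RPM in POA, against 8.03, 6.15, 8.26 and 5.55 RPM in PFC. Every POA pool stood above every PFC pool, and the log2 value of 2.31 ± 0.19 was the highest of the 24 (adjusted p = 5.89e-07). Adra2c ran from 26.4 to 37.8 RPM in POA and from 18.4 to 23.4 RPM in PFC, a smaller gap of log2 0.46 ± 0.14. Without the POA F1r female pool the Adra2c value was 0.40 and no longer passed (adjusted p = 0.0608). Adrb1, a Gs-coupled beta adrenergic receptor, had 2.01 to 4.05 RPM in POA and 2.97 to 5.70 RPM in PFC, and its pools overlapped. Its log2 value was -0.74 ± 0.24, and it did not pass without the PFC F1i female (-0.69), POA F1r female (-0.65) or POA F1r male (-0.71) pool. Adrb3 was listed in the embryo alone, with 1.85 and 1.27 RPM.

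Among the dopamine genes Drd5, a Gs-coupled receptor of the D1 type, had 10.3, 11.2, 11.1 and 10.2 RPM in POA, against 3.59, 6.68, 5.30 and 6.69 RPM in PFC. The POA pools lay above all PFC pools, at log2 0.72 ± 0.21 (adjusted p = 0.00901). On the 6 SNPs listed in both tables, of 10 in POA and 7 in PFC, the value was 0.35 ± 0.25 and did not pass (adjusted p = 0.243). Drd1ip had 428, 443, 416 and 433 RPM in POA, against 244, 355, 333 and 310.5 RPM in PFC. Its pools did not overlap, but at log2 0.26 ± 0.11 it missed the threshold (adjusted p = 0.0686). On the 13 SNPs listed in both tables the value was 0.31 ± 0.11 and passed (adjusted p = 0.0356).

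Of 6 serotonin receptors tested 2 were higher in POA and 4 lower. Htr1a, a Gi-coupled receptor that is also the autoreceptor of serotonin neurons, had 76.5, 68.0, 83.4 and 75.9 RPM in POA, against 35.5, 42.3, 27.1 and 29.2 RPM in PFC (log2 0.97 ± 0.15). Htr7, coupled to Gs, had 39.2, 29.1, 35.2 and 35.9 RPM in POA, against 13.9, 12.5, 11.9 and 11.0 RPM in PFC (log2 1.29 ± 0.15, adjusted p = 1.24e-05). For both genes the lowest POA pool was above the highest PFC pool by a wide margin. Htr3a, the ion channel, had 0.503, 0.132, 0.851 and 0.558 RPM in POA, against 5.91, 7.38, 6.15 and 7.69 RPM in PFC. Its log2 value of -4.14 ± 0.36 rests on 10 POA reads at a single SNP, and on that SNP alone PFC had 21 reads, too few to test.

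The other serotonin receptors were lower in POA by less. Htr2a, the Gq-coupled receptor through which classical hallucinogens act, stood at 6.22 to 9.49 RPM in POA and 11.2 to 15.2 RPM in PFC (log2 -0.90 ± 0.17). Htr5a, coupled to Gi, stood at 25.5 to 29.8 RPM in POA and 32.5 to 44.8 RPM in PFC (log2 -0.65 ± 0.13). Htr1f, also coupled to Gi, had 2.01, 2.65, 1.99 and 2.79 RPM in POA, against 3.59, 3.16, 3.18 and 2.99 RPM in PFC. Htr1f passed narrowly at log2 -0.62 ± 0.25 (adjusted p = 0.0479) and lost the threshold whichever of the 8 pools was left out, at values between -0.76 and -0.52. Htr1d and Htr4 were listed in POA and not in PFC, at 3.35 to 4.37 and 5.16 to 6.24 RPM.

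Of the 3 histamine receptors 2 were lower in POA and 1 did not pass. Hrh3, the Gi-coupled autoreceptor that limits histamine release, had 60.1, 60.0, 67.8 and 59.2 RPM in POA, against 101, 105, 121 and 129 RPM in PFC. The regions did not overlap (log2 -1.10 ± 0.11, adjusted p = 2.35e-06). Hrh1, the Gq-coupled receptor blocked by sedating antihistamines, had 53.6, 33.4, 37.2 and 40.6 RPM in POA, against 47.7, 51.8, 84.3 and 59.5 RPM in PFC. Its pools overlapped, with the POA F1r male pool above the PFC F1r male and female pools, and its log2 value was -0.76 ± 0.17. Hrh2, coupled to Gs, had 7.30, 8.34, 8.23 and 7.12 RPM in POA, against 6.76, 2.99, 5.72 and 5.41 RPM in PFC, and did not pass (log2 0.39 ± 0.23, adjusted p = 0.167).

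Acetylcholine receptors showed both directions in both families. Chrm1, the chief Gq-coupled muscarinic receptor of cortex, had 49.8, 51.9, 46.2 and 43.1 RPM in POA, against 320.0, 429.9, 435 and 348 RPM in PFC. The lowest PFC pool was far above the highest POA pool (log2 -3.22 ± 0.14, adjusted p = 2.9e-09). Chrm3, likewise coupled to Gq, had 23.9, 24.6, 30.1 and 25.8 RPM in POA, against 69.7, 67.8, 59.3 and 65.1 RPM in PFC (log2 -1.55 ± 0.13). Chrm2, a Gi-coupled receptor found on cholinergic terminals, had 6.54, 5.43, 3.69 and 8.37 RPM in POA, against 2.75, 1.58, 2.54 and 2.56 RPM in PFC. Chrm2 was therefore higher in POA, at log2 1.18 ± 0.30 (adjusted p = 0.00461), on 2 SNPs. Chrm4, the other Gi-coupled muscarinic receptor, had 11.8, 19.9, 10.2 and 13.8 RPM in POA, against 13.1, 12.6, 17.4 and 16.4 RPM in PFC, overlapped and did not pass (log2 -0.30 ± 0.21).

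Chrnb2 and Chrna4 code for the subunits of the commonest high-affinity nicotinic receptor of the brain, and they moved in opposite directions. Chrnb2 had 331, 328, 336 and 349.8 RPM in POA, against 163, 160.0, 165 and 159.9 RPM in PFC, with all POA pools far above the PFC pools (log2 0.84 ± 0.09, adjusted p = 6.58e-06). Chrna4 had 57.4, 44.9, 55.3 and 45.9 RPM in POA, against 73.9, 61.3, 60.2 and 69.9 RPM in PFC (log2 -0.61 ± 0.12, adjusted p = 0.000824). Chrna7, which forms channels on its own, had 10.8, 9.93, 11.9 and 13.5 RPM in POA, against 6.13, 5.09, 5.51 and 6.69 RPM in PFC (log2 0.76 ± 0.18). Both Chrnb2 and Chrna4 kept their direction on the SNPs listed in both tables, at 0.91 ± 0.09 and -0.53 ± 0.12. Chrna1 and Chrna3 were listed in POA and not in PFC, and Chrna5, Chrnb3 and Chrnb4 in PFC and not in POA.

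**Figure D2:**
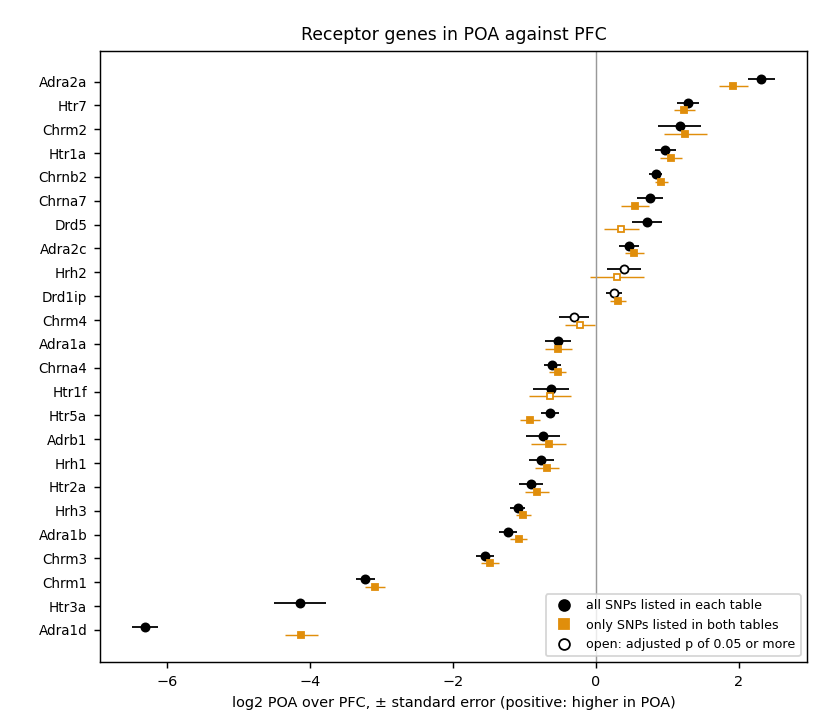
Log2 POA over PFC with its standard error for the 24 genes tested (positive: higher in POA), on all SNPs listed in each table (black circles) and on the SNPs listed in both (orange squares); open symbols did not pass. Adra1d moves most between the measures, to -4.12 from the -6.31 of all SNPs, and Htr3a has no second value.

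A few calls between the regions were lost under other settings than a pool left out. With DESeq2 in place of edgeR Adra1a (-0.53), Adrb1 (-0.74) and Htr1f (-0.65) did not pass. At the deepest SNP alone Adra2c (-0.30, the opposite sign) and Chrna7 (0.39) did not.

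The enzymes, transporters and other partners of these receptors were counted as well. Of 34 such genes 17 could be tested between the regions, and 9 were higher in POA and 3 lower, with a median log2 of 0.55. Over all genes tested 30.4% were higher in POA and 31.1% lower. The 6 with the widest differences were Ddc, the decarboxylase that makes dopamine and serotonin (3.63 ± 0.27), Ache, which breaks down acetylcholine (2.46 ± 0.16), Slc29a4, a monoamine transporter (2.04 ± 0.21), the striatal signalling genes Rgs9 (2.03 ± 0.17) and Ppp1r1b (1.89 ± 0.17), and Maob, a monoamine oxidase (-1.62 ± 0.34). Ppp1r1b and Rgs9 also belong to the striatal list above. Of the 5 cholinergic neuron genes Chat, Slc18a3, Slc5a7 and Isl1 were listed in POA, summing to 163 to 172 RPM, and none in PFC. Of 8 markers of monoamine neurons Th was listed in POA, at 14.6 to 17.4 RPM, and none in PFC.

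The second question is how the adult regions differ from the embryonic brain. The 2 comparisons share the E15 pools, and age cannot be told apart from region because a dissected region is set against a whole brain. In POA 21 of 26 genes tested passed against E15, 18 higher and 3 lower, where 69.2% of all 13617 genes passed, 33.9% higher and 35.3% lower. In PFC 20 of 25 passed, 17 higher and 3 lower, where 61.5% of all 13302 genes passed, 29.5% higher and 32.1% lower. Cell type markers also differed between the adult regions and E15 brain, and their part in the receptor differences was not tested. Embryonic genes summed to 47.4 to 65.0 RPM in POA (4 of 6 listed, Neurod1 and Pax6 not) and 31.4 to 37.7 RPM in PFC (4 of 6, Eomes and Neurod1 not), against 2262 and 2265 RPM in the E15 pools (5 of 6, Neurod1 not). Choroid plexus genes summed to 73.2 to 83.3 RPM in POA (4 of 6, Folr1 and Kcne2 not), had none listed in PFC, and summed to 2023 and 2618 RPM in E15 brain. The oligodendrocyte genes given above summed to 19.6 and 29.2 RPM in E15 brain (2 of 4, Mog and Mobp not). The median log2 value of the receptor genes was 1.23 in POA and 1.65 in PFC, against -0.03 and -0.04 over all genes tested. These values set unlike SNPs against each other for some genes. On SNPs listed in both tables the medians were 0.91 over 20 receptor genes in POA and 1.43 over 22 in PFC. Of the 21 genes called in POA 16 could be tested there and 14 passed in the same direction. In PFC these were 17 and 15 of 20.

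The 3 histamine receptors were higher in both adult regions. Hrh1 had at least 33.4 RPM in every POA pool and 47.7 RPM in every PFC pool, against 2.46 and 2.99 RPM in E15 brain. Hrh2 had at least 7.12 RPM in POA and 2.99 RPM in PFC, against 0.703 and 0.725 RPM in E15 brain. Hrh3 had at least 59.2 RPM in POA and 101 RPM in PFC, against 3.16 and 7.79 RPM in E15 brain. Every adult pool of these genes was above both embryonic pools. The log2 values against E15 were 4.06 ± 0.29, 3.59 ± 0.34 and 3.70 ± 0.29 for Hrh1, Hrh2 and Hrh3 in POA, and 4.81 ± 0.29, 3.20 ± 0.46 and 4.78 ± 0.30 in PFC. On SNPs listed in both tables all 6 values were smaller and ran between 1.59, for Hrh2 in POA, and 4.42, for Hrh3 in PFC, all still past the threshold.

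Muscarinic and alpha adrenergic genes were mostly higher in the adult too. Adra2c, at 5.27 and 7.07 RPM in E15 brain, was higher in POA by 2.58 ± 0.24 and in PFC by 2.08 ± 0.27 on the log2 scale. Chrm1 had 8.79 and 14.5 RPM in E15 brain, so it was higher in POA by 2.20 ± 0.24 and in PFC by 5.40 ± 0.29 on the log2 scale. Chrm4 had 1.05 and 1.54 RPM in E15 brain (log2 3.59 ± 0.38 in POA and 3.86 ± 0.33 in PFC). Chrm3 had 16.4 and 17.4 RPM there (log2 0.77 ± 0.18 in POA and 2.29 ± 0.22 in PFC). Adra1d, with 2 and 4 reads in the E15 pools (0.176 and 0.362 RPM), was higher in PFC by 8.59 ± 0.38 on all SNPs and by 7.13 ± 0.41 on the 1 SNP common to both tables. Adra2a departed from this pattern. At 24.1 and 26.6 RPM in E15 brain it lay between the adult regions, higher in POA (log2 0.80 ± 0.18) and lower in PFC (log2 -1.53 ± 0.26). Chrm2, with 5.45 and 7.07 RPM in E15 brain, did not pass in POA (0.13 ± 0.31) and was lower in PFC at -1.08 ± 0.33. On the 2 SNPs common to the tables this turned round, with a POA value of 1.06 ± 0.35 that passed and a PFC value of -0.16 ± 0.36 that did not. Without the E15 F1i or the E15 F1r pool the PFC value of Chrm2 also did not pass (-0.98 and -1.17). Adra1a, at 7.91 and 5.71 RPM in E15 brain, was higher in POA by 0.77 ± 0.27 and in PFC by 1.27 ± 0.30. On the 6 SNPs common to POA and E15 the POA value was 0.24 ± 0.30 and did not pass, and on the 6 common to PFC and E15 the PFC value was 0.84 ± 0.30 and passed. Without the E15 F1i pool neither Adra1a value passed (0.42 and 0.97), and the POA value also failed without the POA F1i male (0.69) or POA F1r male (0.73) pool.

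Among serotonin receptors Htr1a had 8.52 and 8.33 RPM in E15 brain and was higher in POA (log2 3.32 ± 0.19) and PFC (2.31 ± 0.25), with smaller values that still passed on common SNPs (2.43 ± 0.20 and 1.40 ± 0.29). Htr1d and Htr1f each had 2 and 4 E15 reads (0.176 and 0.362 RPM), at a single SNP that was not among those listed in the adults. Htr1d was higher in POA by 3.97 ± 0.46, and Htr1f in POA by 3.34 ± 0.49 and in PFC by 3.93 ± 0.49, so these values compare different SNPs. The same holds for Htr4, a Gs-coupled receptor at 0.703 and 0.634 RPM in E15 brain, which was higher in POA by 3.20 ± 0.35. Htr2a, at 3.16 and 3.44 RPM in E15 brain, was higher in POA (1.41 ± 0.27) and PFC (2.29 ± 0.29). Htr3a ran the other way in POA, with 4.66 and 5.80 RPM in E15 brain and a log2 value of -3.38 ± 0.42 on its 10 POA reads at 1 SNP, set against 7 SNPs in E15. At that SNP E15 brain had 21 reads, too few to test. Htr3a did not pass in PFC (0.72 ± 0.30). Htr5a had 30.8 and 21.7 RPM in E15 brain, did not pass in POA and was higher in PFC by 0.89 ± 0.23, a value of 0.70 that did not pass without the E15 F1i pool. Htr7 had 21.1 and 16.3 RPM in E15 brain, and was higher in POA (log2 1.05 ± 0.20) and not past the threshold in PFC (-0.26 ± 0.23). Htr5b, a receptor that mice keep and humans have lost, was listed in the embryo alone, at 1.05 and 2.72 RPM.

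Of the 3 genes lower in POA than in E15 brain 2 were nicotinic subunits, and of the 3 lower in PFC 1 was. Chrna3, a subunit best known from autonomic ganglia and the habenula, had 3.02, 2.38, 3.40 and 2.79 RPM in POA, against 41.2 and 45.6 RPM in E15 brain. That gap, log2 -3.79 ± 0.21 (adjusted p = 1.25e-07), was the widest decrease of the 26 genes, and it was -2.85 ± 0.25 on the 5 SNPs common to both tables. Chrna1, the muscle subunit, had 0.755, 1.06, 1.13 and 0.837 RPM in POA, against 2.37 and 3.62 RPM in E15 brain (log2 -1.49 ± 0.36), at SNPs that the tables do not share. Chrna2, a subunit found in few neurons, had 0.634, 0.176, 0.212 and 0.285 RPM in PFC, against 1.93 and 3.71 RPM in E15 brain (log2 -2.80 ± 0.53), again with no SNP in common. Chrnb2, at 193 and 235 RPM in E15 brain, was higher in POA (log2 0.81 ± 0.13, but 0.34 and not past the threshold at its deepest SNP) and did not pass in PFC (-0.06 ± 0.17). Chrna4, at 68.5 and 73.7 RPM, passed in neither region (-0.34 ± 0.17 in POA and 0.24 ± 0.20 in PFC), though its POA value passed on common SNPs (-0.50 ± 0.17). Chrna7, at 3.16 and 2.54 RPM in E15 brain, was higher in POA (2.16 ± 0.28) and PFC (1.38 ± 0.32), but on its single common SNP the values were 0.73 ± 0.32 and 0.87 ± 0.36 and did not pass. Chrnb3, an accessory subunit, passed in PFC (1.33 ± 0.41), and did not without the E15 F1i (1.43), E15 F1r (1.25) or PFC F1i male (1.17) pool.

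At the deepest SNP alone several further calls against E15 were lost. In POA these were Adra1a (-0.47, the opposite sign), Adra2a (0.72), Chrm3 (0.55) and Htr7 (0.72), and in PFC Adra1a (0.71), Adra2a (-1.07), Chrm2 (-0.32), Chrna7 (0.95) and Htr5a (0.59). With DESeq2 Chrna1 in POA (-1.47) and Chrm2 (-1.04) and Chrnb3 (1.38) in PFC did not pass.

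Sex and cross left no called difference in these genes. Of 24 genes 0 passed between males and females in edgeR and 0 in DESeq2, beside 5 of 12480 genes in all (0.0401%). At an unadjusted p under 0.05 the only gene was Adrb1 (log2 male over female -0.60 ± 0.24, adjusted p = 0.921). Between F1r and F1i adults 0 of 24 passed with either tool, beside 1 of 12480 genes (0.00801%), and Htr2a alone had an unadjusted p under 0.05 (log2 F1r over F1i -0.40 ± 0.17, adjusted p = 0.968). With 4 pools on each side, the log2 values ran between -0.60 and 0.28 for sex and between -0.40 and 0.13 for cross.

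The reciprocal crosses also separate the strain of an allele from the parent that passed it on. The CAST share of a gene is the percent of its informative reads with the CAST base, and the median gene of a pool had a CAST share of 47.3% to 49.4%. A strain bias seen in F1 animals compares both alleles in the same nuclei. In POA 4 of 22 receptor genes tested passed (18.2%, beside 28.9% of all 11496 autosomal genes), in PFC 6 of 23 (26.1%, beside 36.0% of 11018), and in E15 brain 3 of 23 (13.0%, beside 10.9% of 14181). The receptor genes were thus called no more often than others in the adult regions and at about the general rate in the embryo. The test is against an equal share of both alleles, and calls over all genes leaned to B6. With CAST higher there were 1345 in POA, 1285 in PFC and 517 in E15 brain, and with B6 higher 1974, 2681 and 1033. Of the receptor genes 2, 4 and 0 had CAST higher, and 2, 2 and 3 had B6 higher. With DESeq2 in place of edgeR, Drd1ip alone passed in POA, Htr7, Adra1b and Drd1ip in PFC, and Chrna3 in E15 brain. Reads at different SNPs of a gene did not always give the same share, which the pool spread does not show. The 6 genes with the widest called biases are shown here at their deepest SNP in a coding exon. Wider biases that did not pass, with ends at log2 -1.81 and 1.68 in E15 brain, are left out. Each window is 29 bases of the transcript strand of the mm9 genome, which carries the B6 base, with the SNP at position 15 in capitals and positions counted from the 5′ end.
Htr7: ttcgttagtgtcacGgacctcatcggggg
Chrna3: tttgtgctcaacgtGcactacagaactcc
Drd1ip: tggtatgaccagttTacctgcccagatgg
Drd5: atagtgacctacacGcgcatctaccgcat
Adra1b: aaaatgaatcccgaTctggacaccggcca
Chrnb2: attcgtcgcaaaccGctcttctacaccat
The Htr7 window lies at chr19:36131298-36131326 on the minus strand, with the substitution G15C in CAST. The Chrna3 window, at chr9:54863335-54863363 on the minus strand, has G15T. The Drd1ip window, at chr7:147257496-147257524 on the minus strand, has T15C, the Adra1b window, at chr11:43649565-43649593 on the minus strand, has T15C, and the Chrnb2 window, at chr3:89565213-89565241 on the minus strand, has G15C. For the Drd5 window, at chr5:38711610-38711638 on the plus strand, the CAST base is not given in the tables used here.

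Htr7 showed a strain bias in PFC and none in POA. Its CAST share in the PFC pools was 77.3%, 69.0%, 66.1% and 71.4%, and in the POA pools 46.2%, 45.9%, 52.4% and 55.6%. In E15 brain it was 47.5% and 46.7%. Every PFC pool lay above every POA pool, in both crosses and both sexes, and each PFC pool had 56 to 77 reads. The log2 CAST over B6 value was 1.30 ± 0.21 in PFC (edgeR adjusted p = 4.42e-05), 0.01 ± 0.11 in POA and -0.17 ± 0.18 in E15 brain. The difference of the adult regions, POA minus PFC, was itself tested at -1.29 ± 0.23 (adjusted p = 0.000576, beside 11.0% of all 11265 genes past the threshold for this difference). All 8 SNPs listed in PFC had a CAST share above 50%, from 67.6% to 83.3%, whereas the 10 POA SNPs ran from 38.9% to 60.4%. At the base shown above the share was 67.6% of 34 reads in PFC, 52.6% of 114 in POA and 31.4% of 35 in E15 brain. On SNPs listed in both adult tables, an alternative chosen after seeing the data, the Htr7 difference was -1.29 ± 0.23, and the other 3 differences called between the regions also passed. The gene, on chromosome 19 between 36033224 and 36131997, overlaps no other annotated gene. The Htr7 calls in PFC and between the regions held under all alternatives that could be run, including each pool left out. At the deepest SNP alone the PFC bias had too few reads to test. A difference between the adult regions and E15 brain was not tested.

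**Figure D3:**
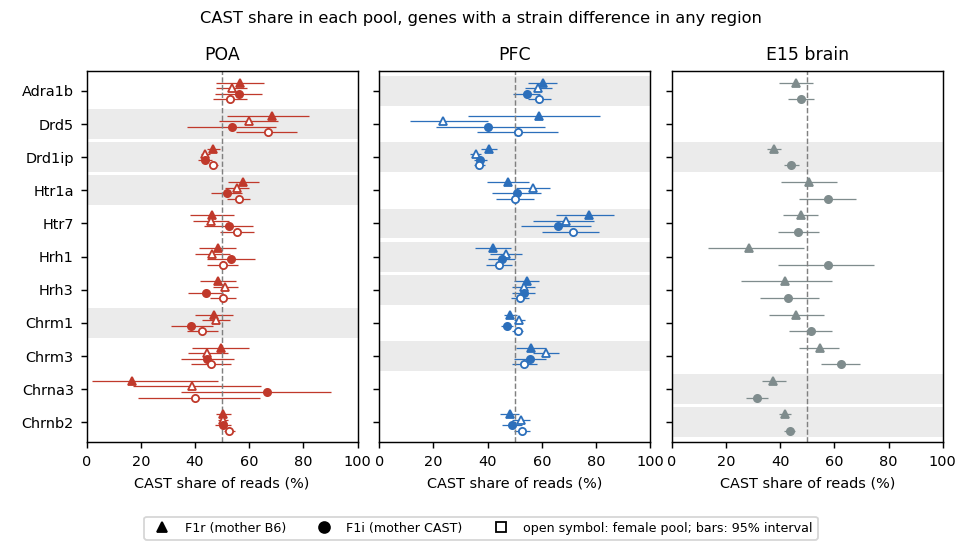
CAST share of informative reads (%) in each pool of POA, PFC and E15 brain, with Clopper-Pearson 95% intervals for counting error, for the 11 genes with a called strain bias in any region (grey bands mark the regions where they were called; triangles F1r, circles F1i, open symbols female). The 4 PFC pools of Htr7 sit at 66.1% to 77.3%, to the right of all POA and E15 pools.

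Drd1ip was called in all 3 regions, with fewer CAST than B6 reads in each. Its CAST share was 46.8%, 43.8%, 43.5% and 46.8% in POA, 40.4%, 35.6%, 37.2% and 36.9% in PFC, and 37.7% and 44.1% in E15 brain. All 10 pools lay below 50%, at log2 -0.27 ± 0.04 in POA, -0.74 ± 0.06 in PFC (adjusted p = 3.14e-09) and -0.53 ± 0.12 in E15 brain (adjusted p = 0.0384). The E15 call was lost under all 4 alternatives run, with DESeq2, at the deepest SNP, with the filter of 20 summed reads and with X-linked genes in the fit (adjusted p = 0.128, 0.351, 0.0698 and 0.186). POA minus PFC was 0.47 ± 0.08 (adjusted p = 0.000181). The share depended on the place in the transcript. Over the first 5 SNPs, bases 96 to 448, the CAST share was 47.2% in POA, 41.4% in PFC and 40.7% in E15 brain. From base 839 on it was 23.5% in POA and 22.6% in PFC, and 39.2% in E15 brain. The last stretch held 8.14% of the Drd1ip reads in POA and 22.3% in PFC, so the regions weighted it differently. At the deepest SNP alone, base 448, the bias was -0.08 in POA and the difference between regions 0.24, and neither passed (adjusted p = 0.579 and 0.24). Of 16 SNPs of this transcript only the first 5 could be placed on the annotated Caly transcript, on chromosome 7, so what the last stretch belongs to is not known here.

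**Figure D4:**
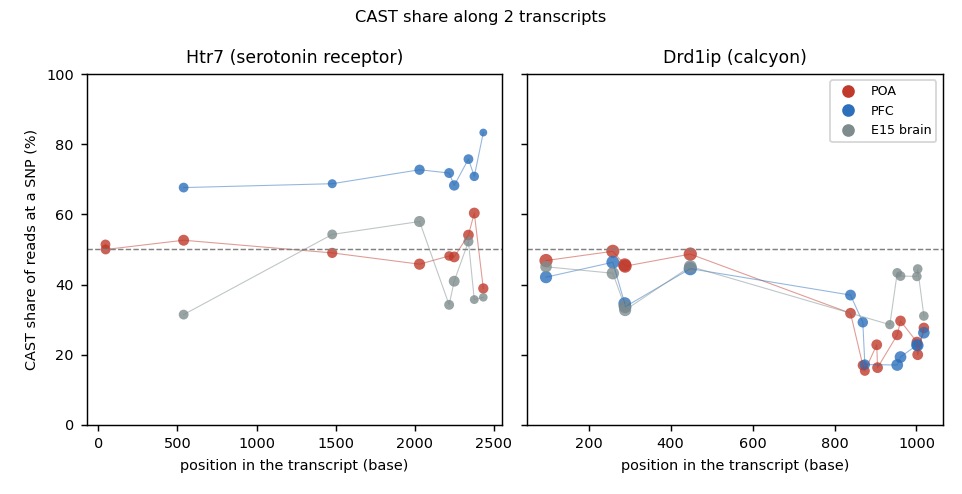
CAST share of reads at each SNP (%) against its base in the transcript for Htr7 and Drd1ip, with POA in red, PFC in blue and E15 brain in grey, and larger points for more reads. Htr7 is above 50% at every SNP in PFC, and Drd1ip drops beyond base 839 in both adult regions.

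Drd5 and Chrm3 also differed between the adult regions. The CAST share of Drd5 was 68.3%, 60.0%, 53.8% and 67.1% in POA, all above 50%, and 58.8%, 23.7%, 40.0% and 51.1% in PFC. With 39 to 85 reads a pool in POA and 17 to 47 in PFC, the intervals are wide. The bias was 0.74 ± 0.21 in POA and -0.52 ± 0.33 in PFC, which did not pass, and POA minus PFC was 1.24 ± 0.39 (adjusted p = 0.0432). That difference fell below the threshold without the PFC F1i male (1.19), PFC F1r female (0.71), POA F1i female (1.13), POA F1r female (1.27) or POA F1r male (1.13) pool. The POA bias was lost without the POA F1i female (0.49) or POA F1r male (0.65) pool. At the Drd5 base shown above the share was 68.3% of 41 reads in POA and 20.7% of 29 reads in PFC, where it was the lowest of the gene. The 7 PFC SNPs ran from 20.7% to 70.0%, with 48.4% at the deepest, and the 10 POA SNPs from 43.5% to 76.7%. Gm16766, a lincRNA on the other strand, overlaps Drd5, and reads of the 2 genes cannot be told apart.

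The CAST share of Chrm3 was 49.5%, 44.6%, 44.3% and 45.9% in POA, 56.1%, 61.7%, 55.7% and 53.6% in PFC, and 54.5% and 62.5% in E15 brain. No POA pool reached 50% and every PFC pool passed it. The bias was -0.24 ± 0.13 in POA, which did not pass, and 0.39 ± 0.09 in PFC (adjusted p = 0.00249). POA minus PFC was -0.63 ± 0.16 (adjusted p = 0.00945), and -0.54 without the POA F1r female pool, where it did not pass (adjusted p = 0.069). Without the PFC F1r female pool the PFC bias was 0.31 with an adjusted p of 0.05. Single SNPs of Chrm3 ran from 33.8% to 72.7% in POA and from 37.9% to 78.5% in PFC, so the SNPs of this gene did not give a common share.

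The other biases called in the adult regions were smaller than those of Htr7 and Drd5. Adra1b had CAST shares of 60.4%, 58.7%, 54.5% and 59.1% in PFC (log2 0.48 ± 0.09, adjusted p = 0.000219), and 9 of its 11 SNPs there were above 50%. In POA its shares were 56.7%, 53.6%, 56.2% and 53.0%, on the same side of 50%, but the log2 value of 0.26 ± 0.11 did not pass. At the Adra1b base shown above the share was 60.4% of 694 reads in PFC and 48.5% of 101 in POA. Htr1a had shares of 57.9%, 55.6%, 51.7% and 56.2% in POA (log2 0.32 ± 0.08), a value of 0.24 that did not pass without the POA F1i female pool. Chrm1 had 47.0%, 47.7%, 38.7% and 42.7% in POA (log2 -0.33 ± 0.10) and lost the threshold whichever of the 4 pools was left out, at values from -0.41 to -0.29. In PFC, where Chrm1 had 1515 to 2447 reads a pool, the shares were 48.4%, 51.7%, 47.1% and 51.1% and the log2 value was -0.02 ± 0.05.

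Neither histamine receptor called in PFC held under every alternative run. Hrh1 had CAST shares of 42.0%, 46.8%, 45.2% and 44.3% in PFC, all below 50% (log2 -0.31 ± 0.10, adjusted p = 0.0163). It did not pass without the PFC F1i female (-0.29), PFC F1i male (-0.32) or PFC F1r male (-0.25) pool. Hrh3 had 54.5%, 53.3%, 53.3% and 52.1% in PFC (log2 0.19 ± 0.07, adjusted p = 0.0478), tight among pools yet lost under all 8 alternatives run. Without each of the 4 pools in turn the values ran from 0.17 to 0.21. With the filter of 20 summed reads the value was 0.19 (edgeR adjusted p = 0.0533). Gm17180, on the other strand, overlaps Hrh3.

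Settings other than a pool left out also ended some of these adult calls. At the deepest SNP alone the POA biases of Chrm1 (-0.07) and Htr1a (0.22), the PFC bias of Hrh3 (0.16) and the difference of Chrm3 between regions (-0.69) did not pass. With X-linked genes in the fit the POA biases of Drd5 (0.74) and Htr1a (0.31), the PFC bias of Hrh3 (0.19) and the difference of Drd5 (1.21) did not. With DESeq2 the difference of Chrm3 (-0.63) did not pass either.

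In the embryo Chrna3 had CAST shares of 37.5% and 31.4%, and Chrnb2 of 41.8% and 43.5%. Chrna3, at log2 -0.93 ± 0.15 (adjusted p = 0.0131), was below 50% at 17 of its 19 SNPs, which ran from 16.8% to 85.7%. The base shown above gave the lowest share, 16.8% of 202 reads. Chrnb2, at -0.43 ± 0.10 (adjusted p = 0.0419), was below 50% at 30 of 39 SNPs, with a range of 22.9% to 59.7%, and its deepest SNP read 58.7%. At the Chrnb2 base shown above the share was 38.4% of 237 reads in E15 brain, 47.5% of 255 in POA and 47.1% of 191 in PFC. Over the whole gene Chrnb2 had shares of 50.4%, 50.4%, 50.3% and 52.7% in POA and 48.1%, 52.3%, 49.0% and 52.5% in PFC, and passed in neither. The embryonic calls rest on 1 pool per cross. With X-linked genes in the same fit, 0 of the 3 passed, at adjusted p-values of 0.163 for Chrna3, 0.171 for Chrnb2 and 0.186 for Drd1ip.

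The parental strains at E15 were also read at these SNPs, as 1 summed value per strain. On SNPs listed in both, the F1 CAST shares of Chrnb2, Chrna3 and Drd1ip were 42.7%, 33.8% and 40.7%. Scaled to the reads of each strain, CAST made up 43.5%, 43.5% and 44.4% of the sum of the parental strains for the same genes. For Htr7 the F1 share was 47.1% and the parental value 46.1%. The 3 genes with a called bias in E15 F1 brain were thus below 50% in the parental strains as well, a description without a test.

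The last question is whether either parent's copy was favoured, as in imprinted genes. The maternal share is the CAST share in F1i and the B6 share in F1r. No receptor gene met the call, an adjusted p under 0.05 with F1r and F1i both favouring the copy of the same parent. A gene whose strain bias is wider than its parental bias cannot meet this call, whatever its p-value. In POA 0 of 22 passed in edgeR and 0 in DESeq2, beside 130 of 11496 autosomal genes (1.13%), and in PFC 0 of 23 with either tool, beside 48 of 11018 (0.436%). In E15 brain 0 of 23 were called by Fisher's exact test, beside 687 of 14181 (4.84%). A male against female difference in parental bias was called for 0 of 23 receptor genes in edgeR and 0 in DESeq2, beside 0 of 11265 genes (0%), of which 491 had an unadjusted p under 0.05.

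The maternal shares of several genes with many reads lay close to 50%. Chrnb2 had maternal shares of 50.6% ± 1.5 in POA and 50.3% ± 2.3 in PFC (SD, n = 4 each), and Chrm1 49.5% ± 2.2 in PFC. Adra1d had 50.8% ± 1.7 in PFC. Hrh3 spread more, at 48.7% ± 3.3 in POA and 49.4% ± 3.9 in PFC. A strain bias widens this spread, since the CAST allele is the maternal copy in F1i and the paternal one in F1r. Drd1ip in E15 brain had an adjusted Fisher p of 0.0114 at log2 maternal over paternal 0.19. Its maternal share was 62.3% in F1r and 44.1% in F1i, on opposite sides of 50%, so it was not called. With a strain bias of log2 -0.53 there, a parental bias of that size could not put both crosses on the same side. At an unadjusted p under 0.05 stood Htr7 in POA, with log2 maternal over paternal 0.24 ± 0.11 and maternal shares of 53.8%, 54.1%, 52.4% and 55.6%, and Adra1a in PFC (0.45 ± 0.20). Their adjusted p-values were 0.709 and 0.926. In the embryo Drd1ip, Chrna3, Chrna5 and Hrh1 were below that unadjusted level, and for the sex difference Drd5 and Drd1ip, at -0.92 ± 0.38 and -0.16 ± 0.07 (log2 maternal over paternal, male minus female). Shallow genes such as Drd5 and Chrna7 had wide standard errors in PFC, 0.33 and 0.30 on this log2 scale, against 0.07 for Chrnb2. A moderate parental bias of such genes could be missed, and the smallest detectable bias was not tested.

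**Figure D5:**
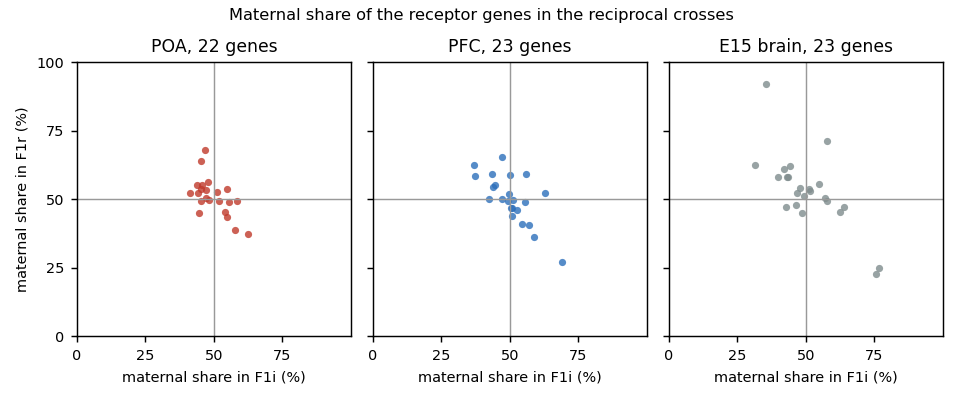
Maternal share in F1r (%) against maternal share in F1i (%) of each receptor gene tested in POA, PFC and E15 brain, with the pools of a cross summed. A gene with a parental bias wider than its strain bias would lie at the upper right or lower left, away from the 50% lines. A strain bias moves a gene along the falling diagonal, where Htr7 in PFC and the genes with a called strain bias lie.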

How the data were processed

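The deposited values are counts of reads per SNP with the CAST or the B6 base, from 36-cycle unstranded RNA sequencing per the labels' protocols. The authors summed technical replicates into 1 column per pool, and the submitters' processing notes name Novoalign and mm9. The 24 F1 libraries thus gave 10 pools. Of 8 parental libraries the 4 embryonic ones were used; the adult ones were not used here, since nearly all their values were the same in the POA and PFC tables.

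Repeated listings were dropped (2073 in E15, 1056 in POA, 911 in PFC), 8 mitochondrial symbols were left out, and each gene was read on its transcript with most reads. SNPs under 36 bases apart can count the same read. Total reads were tested with edgeR 4.0.16's quasi-likelihood test (R 4.3.3, TMM, filterByExpr) over genes listed in both tables, with cross and sex as covariates where the design has them. Allele reads of autosomal genes with a mean of at least 20 reads per pool were tested with the same quasi-likelihood test, without TMM or filterByExpr. The terms were pool and allele, and in the adults allele by cross. The E15 strain fit had no allele-by-cross term, so any parental effect there stays in the residual spread. Parental bias in E15 used Fisher's exact test, two-sided, with a pseudocount of 0.5 for log2 values. The threshold was a Benjamini-Hochberg adjusted p of 0.05 over all genes. p-values measure the spread between pools, except those of Fisher's test in E15, which cover counting error only. The alternatives were DESeq2 1.42.0, other size factors, other filters, the deepest SNP only, SNPs listed in both tables, X-linked genes in the fit, each pool left out, and a block for the 4 sets of cross and sex (chosen after seeing the data). Intervals are Clopper-Pearson at 95% (scipy 1.17.1) and, like other depth statements, cover counting error only. Fits were tested on simulated data.

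The genes and lists were chosen with earlier results of these data known. Pool values are given for genes among the top 3 per SNP in a region or called in a comparison. Other genes of the pathway are named for the 6 widest called differences between POA and PFC. The sequences are of the deepest SNP in a coding exon of the 6 genes with the widest called strain bias, off chromosome 18, read from the NCBIM37 (mm9) genome with GENCODE annotation. Of the list of cortical excitatory genes 1 is not reported here.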

Additional observations from a re-analysis of the deposited data

Results flagged for a closer look

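Pools standing apart from the other 3 of their region were looked for with Dixon's test in 102 groups of 4 pools. A group is the level of a gene in an adult region, or its CAST share there at a mean of at least 20 reads per pool. In these groups 5 such pools were found, where chance flags about 1 group in 20. The CAST share of Adra1a in the POA F1i male pool was 68.2%, with the other POA pools at 29.5% to 34.2%. The CAST share of Adra2a in the PFC F1i female pool was 61.5%, with the others at 38.5% to 42.1%. For Chrm4 the PFC F1i male pool had a CAST share of 47.6%, with the others at 52.8% to 53.2%. For Chrnb2 the POA F1i female pool had 52.7%, with the others at 50.3% to 50.4%. The level of Hrh3 in the POA F1i male pool was 67.8 RPM, with the others at 59.2 to 60.1 RPM.

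Strain bias differed between POA and PFC by a test of the difference itself in 4 genes, on the log2 scale as POA minus PFC. The values were -1.29 for Htr7, -0.63 for Chrm3, 1.24 for Drd5 and 0.47 for Drd1ip.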

How the results depend on the processing

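The pools carry no replicate number; in a replicate block of the 4 sets of cross and sex, added after seeing the data, 7823 genes and 21 receptor genes passed for POA against PFC and 1110 and 4 for the strain bias difference, with Htr1f lost (adjusted p = 0.058), Drd1ip gained in POA against PFC and no other of these receptor calls changed. Of 79 results on single receptor genes 47 passed under every alternative that could be run for them and 32 lost the threshold at least once. An alternative with too few reads to test a gene was not counted, so some of the 47 met fewer alternatives. Htr1d, Htr1f, Htr3a and Htr4 in POA against E15 are such results, with no test on common SNPs. So are Htr1f and Chrna2 in PFC against E15 and Htr3a in POA against PFC. At the deepest SNP alone 3 results turned direction: Adra1a in POA against E15 (-0.47), Adra2c in POA against PFC (-0.30) and Chrnb2 strain bias in E15 (0.47). On the deepest SNP alone 13 receptor genes passed in POA against E15 (21 on all SNPs) and 12 in PFC against E15 (20), and 5272 of all genes in PFC against E15 (8185). Without each pool in turn, 18 to 21 receptor genes passed in POA against PFC, 20 to 22 in POA against E15 and 17 to 21 in PFC against E15, and 6680 to 7793, 8701 to 9689 and 6555 to 8462 of all genes. For sex, 2 genes passed on the deepest SNP and 0 to 6 without a pool (5 in all). For cross, 2 passed with DESeq2, 0 with RLE size factors, 0 on the deepest SNP and 0 to 1 without a pool (1 in all); no receptor gene passed for either.

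Strain bias counts also moved. In E15 DESeq2 called 521 genes and 1 receptor gene, the deepest SNP 23 and 0, the filter of 20 summed reads 686 and 1, and X-linked genes in the fit 0 and 0 (1550 and 3). In POA DESeq2 called 1393 and 1, the deepest SNP 1224 and 0, X-linked genes in the fit 1585 and 2 (3319 and 4), and leaving out a pool 1640 to 2702 and 1 to 4. In PFC DESeq2 called 1865 and 3, X-linked genes in the fit 2517 (3966 and 6), and leaving out a pool 2771 to 3308 and 4 to 6. For the difference of POA and PFC, DESeq2 called 588 and 2, the deepest SNP 713 and 1, X-linked genes in the fit 576 (1238 and 4), and leaving out a pool 787 to 1042 and 2 to 5. Parental bias called 101 genes in E15 with edgeR and the adult dispersion and 309 on the deepest SNP (687), 73 in POA with DESeq2, 46 with X-linked genes and 59 to 156 without a pool (130), 41 to 55 in PFC without a pool (48), and for its sex difference 330 with X-linked genes and 0 to 21 without a pool (0). No receptor gene passed for parental bias under any of these. The causes were not tested. The single E15 pool per cross, and genes under about 20 reads a pool, limit the precision.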
